A study of Rattus norvegicus with 320 samples.

Results

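The uterus of female Fischer 344 rats was compared between 6 weeks of age, when the animals were adolescent, and 21 weeks, when they were adult. The comparison used the 4 uterus samples of each age, 8 of the 320 samples of a small RNA sequencing atlas of rat organs, and all 616 miRNAs of its count table. Each sample came from a different rat, so the ages are different animals and not repeated measures. The labels name no treatment. The rats were housed in pairs and came from 1 breeding colony, and each uterus was ground whole before total RNA was extracted. The stage of the estrous cycle at collection is not given in the sources used here.

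MicroRNAs are short RNAs that guide Argonaute proteins to messenger RNAs and lower the output of those messages. Most of the pairing is made by the seed, bases 2 to 8 counted from the 5′ end, so miRNAs with the same seed can share targets. The uterus is a muscular organ, with a myometrium of smooth muscle around an endometrium of stroma, glands and a lining epithelium, and it holds a resident population of leukocytes. Between adolescence and adulthood the organ completes its growth and begins its ovarian cycles.

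The sequences below belong to the miRNAs on which the comparison turned, as the deposited table gives them and identical to the RefSeq entries of the same names, with the seed in capitals. The first set is shown because its 3 members share 1 seed and all of them rose.
miR-29a-3p: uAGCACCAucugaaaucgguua
miR-29b-3p: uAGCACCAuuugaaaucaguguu
miR-29c-3p: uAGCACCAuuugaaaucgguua

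The next set also shares a seed, but its members did not move together. The first pair rose and miR-15b-5p fell.
miR-195-5p: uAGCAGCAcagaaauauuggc
miR-497-5p: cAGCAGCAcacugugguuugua
miR-15b-5p: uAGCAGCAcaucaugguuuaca

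The miRNAs that fell came largely from clusters on chromosomes 6 and X. For these, miR-541-5p, miR-411-5p and miR-431 stand for the imprinted Dlk1-Dio3 locus of chromosome 6, and miR-351-5p and miR-542-3p for the X-linked cluster. The seed of miR-351-5p is that of miR-125b-5p, which is shown beneath it.
miR-541-5p: aAGGGAUUcugauguuggucacacu
miR-411-5p: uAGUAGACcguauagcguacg
miR-431: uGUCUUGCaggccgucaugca
miR-542-3p: uGUGACAGauugauaacugaaa
miR-351-5p: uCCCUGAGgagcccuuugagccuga
miR-125b-5p: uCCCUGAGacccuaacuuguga

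The last set is shown because its change in uterus differed from the mean change of the other organs. Both arms of the leukocyte miRNA miR-142 rose, while miR-146b-5p and miR-31a-5p fell.
miR-142-5p: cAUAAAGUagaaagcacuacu
miR-142-3p: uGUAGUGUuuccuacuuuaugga
miR-146b-5p: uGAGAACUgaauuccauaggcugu
miR-31a-5p: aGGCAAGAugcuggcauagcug

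The libraries held 4717063 to 6291223 counts at week 6 and 6428871 to 7686891 counts at week 21. Of the 616 miRNAs, 356 had a mean of at least 10 counts over the 8 samples and 17 had no count in any of them. Pearson's correlation of log2(CPM + 1) was 0.984 to 0.990 between samples of week 6, 0.992 to 0.995 between samples of week 21 and 0.978 to 0.988 across the ages, where CPM is the count of a miRNA scaled to 1e6 counts in its library. The labelled organ was checked against markers of its cells. The smooth muscle miRNAs miR-143 and miR-145 together made up 430234 to 521530 CPM in every sample, the epithelial miR-200 family 1647 to 6226 CPM, and the mesenchymal miR-199a and miR-214 together 4682 to 12062 CPM. The 8 samples were sequenced in several lanes, and only lane 3 held samples of both ages, namely sample 1 of week 6 and sample 3 of week 21. Within these 8 samples lane and age can therefore largely not be told apart. A fit with lane as a term used all 16 uterus samples. It separated lane from age largely through samples of weeks 2 and 104 that shared lanes with them. The calls that held in this fit are named below.

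Between week 6 and week 21, 56 of 616 miRNAs passed an adjusted p-value of 0.05 in edgeR's quasi-likelihood test, which is 9.09% of those tested. Of these, 27 rose (4.38%) and 29 fell (4.71%). A change of at least 2-fold, a log2 fold change of 1, was seen in 19 of those that rose (3.08%) and 25 of those that fell (4.06%). The ranges of the 4 samples of each age did not overlap for 70 miRNAs, with 40 higher (6.49%) and 30 lower (4.87%) at week 21, and 42 of the 56 were among them. With lane as a term in the fit, 16 miRNAs passed, 15 of them among the 56, and all 56 kept their sign. The 15 were miR-29a-3p, miR-29b-3p, miR-29c-3p, miR-142-3p, miR-195-5p, miR-582-3p, miR-21-5p and miR-592, which rose, and miR-541-5p, miR-411-5p, miR-351-5p, miR-542-3p, miR-322-3p, miR-335 and miR-203b-3p, which fell. The other 41 calls were lost in that fit, with adjusted p-values of 0.0553 to 0.728. Some of them kept nearly the same log2 fold change, such as miR-431 (-1.57, or -1.50 with lane) and miR-15b-5p (-0.85, or -0.86). Others shrank, such as miR-146b-5p (-1.53, or -0.58 with lane). The lane terms also leave fewer independent values from which the spread is estimated. Whether lane itself was the reason for a lost call was not tested. Upper-quartile scaling, under which the median of all miRNAs stood at -0.18 on the log2 scale, gave 16 that rose and 55 that fell. Without sample 2 or sample 4 of week 21 the 56 calls became 36 and 35. In whole tissue, fewer cells of a type and less RNA per cell cannot be told apart.

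**Figure D1:**
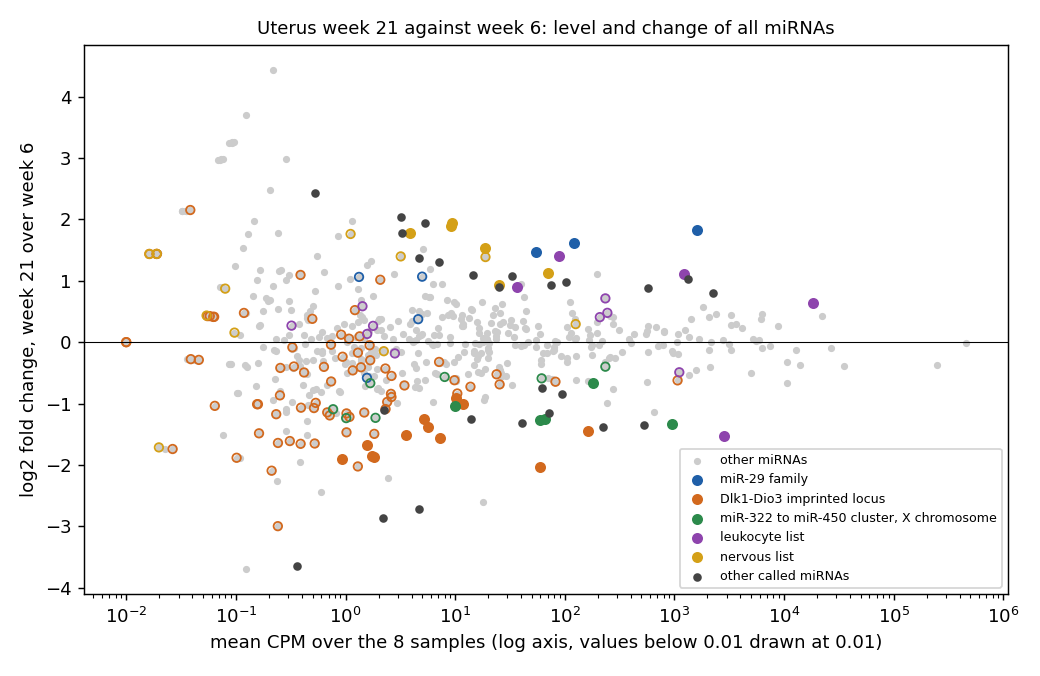
Mean CPM over the 8 samples (x axis, log) against the log2 fold change of week 21 over week 6 (y axis) for 616 miRNAs, each point 1 miRNA. Filled coloured and dark points passed the adjusted p-value of 0.05, and open coloured points are members of the same lists that did not. The most abundant miRNAs lie near 0, the 3 called miRNAs of the miR-29 family stand at 1.47 to 1.83 and the called miRNAs of the Dlk1-Dio3 locus lie below 0.

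The most abundant miRNAs of the uterus did not pass the test. miR-143-3p, which is enriched in smooth muscle, made up 44.4% ± 0.480 of all counts at week 6 (SD, n = 4) and 47.3% ± 4.16 at week 21. It was followed by miR-10b-5p, encoded within a Hox cluster, with 27.1% ± 3.08 and 22.8% ± 4.06, and by its relative miR-10a-5p with 3.86% ± 0.605 and 3.12% ± 0.465. miR-26a-5p held 2.67% at both ages. miR-22-3p held 1.85% ± 0.415 at week 6 and 2.61% ± 0.510 at week 21. The 10 most abundant miRNAs together took 86.5% ± 2.00 of the counts at week 6 and 85.2% ± 1.44 at week 21, and the 2 ages overlapped. The difference of -1.35 percentage points was smaller than the spread between samples (two-sided exact permutation test, p = 0.429, adjusted p = 0.589 over 11 shares, where the smallest p of 4 against 4 is 0.0286). Among these 10, only miR-21-5p passed edgeR's test.

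The clearest rise was that of the miR-29 family, whose known targets include collagens and other matrix genes and a DNA methyltransferase. miR-29a-3p stood at 959, 654, 415 and 754 CPM in samples 1 to 4 of week 6 and at 2455, 2858, 2362 and 2457 CPM in those of week 21. Every week 21 sample lay above every week 6 sample, by more than the whole range within either age. The rise was 3.56-fold, a log2 fold change of 1.83 (SE 0.18, adjusted p = 2.20e-06).

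miR-29c-3p had 65.0, 47.7, 37.1 and 83.2 CPM at week 6 and 185, 223, 147 and 178 CPM at week 21, a log2 fold change of 1.62 (SE 0.20, adjusted p = 2.25e-05). miR-29b-3p had 21.9, 24.6, 20.5 and 46.6 CPM at week 6 and 81.2, 94.1, 77.8 and 71.8 CPM at week 21, a log2 fold change of 1.47 (SE 0.28, adjusted p = 0.00204). For both of them the 2 ages did not overlap, and the highest week 6 sample was sample 4. The mature sequences of miR-29a-3p and miR-29c-3p differ by 1 base over 22, and since the alignment allowed fewer than 2 mismatches, some reads may have been assigned between them. The family is encoded at 2 loci, miR-29b and miR-29c at chr13:109098841-109099433 and miR-29a and miR-29b at chr4:60617968-60618400 (RefSeq, GRCr8). The 3 mature forms above were the members of the list that passed, out of 7 rows that count both arms. All 3 passed in each of 15 alternative fits, including the one with lane as a term.

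Of the 12 other seeds that were carried by several miRNAs and had at least 1 call, 8 had all their members on the same side of 0. These 8 were all pairs. Members differed by 1 base in miR-101a-3p and miR-101b-3p, miR-135a-5p and miR-135b-5p, miR-204-5p and miR-211-5p, and miR-450a-5p and miR-450b-5p. For miR-129-1-3p and miR-129-2-3p they differed by 0 over the bases compared. In these pairs reads may have been assigned between the members. In the largest of the 12 seed groups the members differed in sign. Its seed, AGCAGCA, is carried by 6 miRNAs of the table that include the miR-15 and miR-16 family, which is known for repressing cyclins and other cell cycle genes. miR-195-5p rose from 1228, 639, 591 and 939 CPM to 1990, 1884, 1543 and 1776 CPM (log2 1.03, SE 0.21, adjusted p = 0.00282), and no sample of week 6 reached the level of week 21. Its neighbour miR-497-5p, from the same short stretch at chr10:55450172-55450569, rose from 555, 286, 194 and 561 CPM to 857, 754, 686 and 675 CPM (log2 0.89, SE 0.26, adjusted p = 0.0355). The call on miR-497-5p was lost when 1 of 6 libraries was left out, namely samples 2 and 3 of week 6 and any sample of week 21, with adjusted p-values of 0.0537 to 0.120. The fall of miR-15b-5p was from 104, 116, 97.8 and 154 CPM to 90.0, 63.9, 68.8 and 56.1 CPM (log2 -0.85, SE 0.19, adjusted p = 0.00578), and here too the ages did not overlap. The remaining members, miR-16-5p, miR-322-5p and miR-15a-5p, did not pass. miR-15b-5p and miR-15a-5p differ by 1 base over the 19 compared, so that reads between them are also uncertain. In the fit with lane, miR-497-5p had an adjusted p of 0.117 and miR-15b-5p of 0.118.

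**Figure D2:**
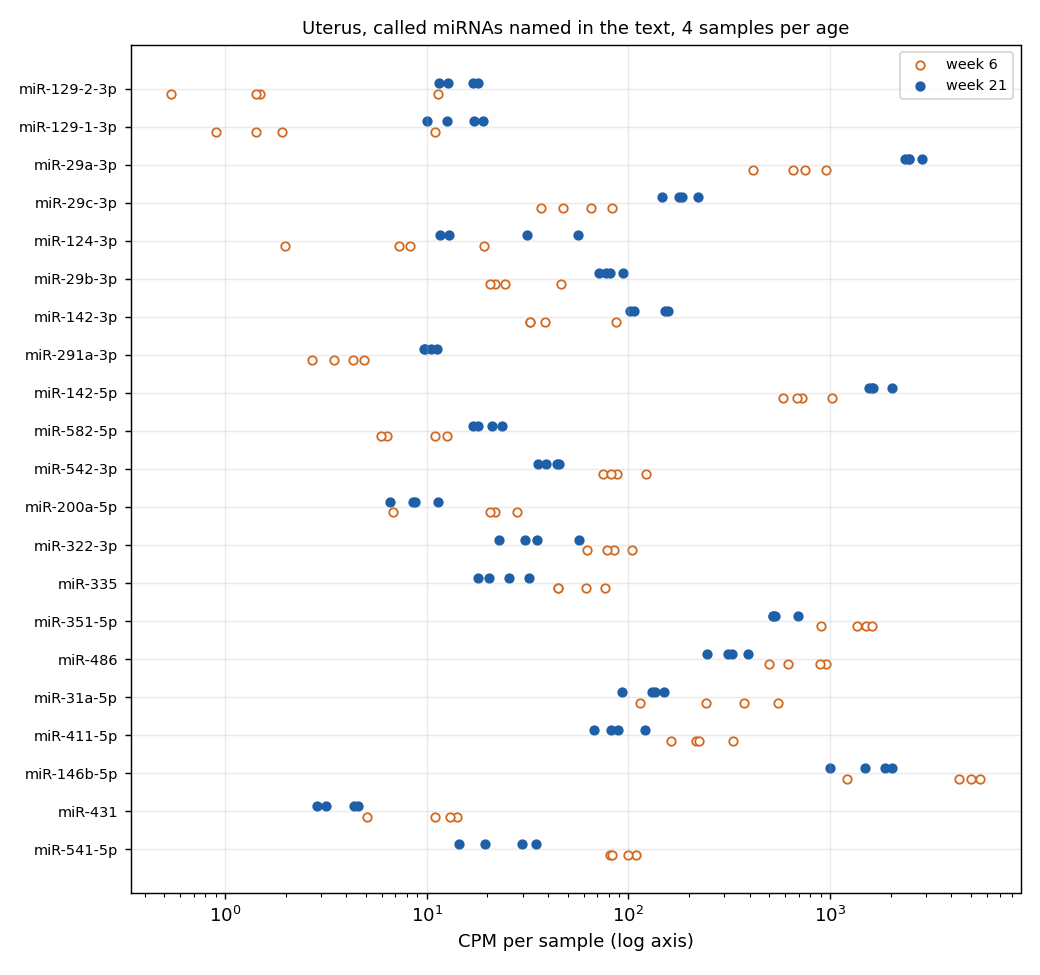
CPM of each sample (x axis, log) for the called miRNAs that the selection rule names, with week 6 as open and week 21 as filled points and 4 samples per age. The 3 miR-29 miRNAs and miR-541-5p separate fully by age, and for miR-146b-5p and miR-31a-5p sample 1 of week 6, at 1209 and 114 CPM, lies within the range of week 21.

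The falls were led by miRNAs of the Dlk1-Dio3 imprinted locus, whose miRNAs are expressed from the maternal chromosome and are best known for high expression in the embryo, placenta and brain. The 85 rows assigned to it by hairpin name gave 12 that fell and 0 that rose, beside 4.71% of all miRNAs lower. These are not exactly the rows of the stretches given below by position. Both arms of miR-3559 are among the 85 but lie in none of the stretches. miR-1188-5p and miR-6331 lie in the stretches but are not among the 85. Below 0 were 67 of the 85, against 305 of all 616. The median log2 fold change over the 85 was -0.73, or -0.84 for the 28 with a mean of at least 10 counts, while the median of all miRNAs was 0. Under the 3 other scalings the medians of the locus's 2 lists ranged from -1.03 to -0.60, and no member rose under any of them.

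miR-541-5p had 80.7, 110, 83.2 and 99.5 CPM at week 6 and 35.1, 29.8, 19.4 and 14.5 CPM at week 21. The lowest week 6 sample was above the highest of week 21 by more than either age's own range. Its fall was 4.12-fold (log2 -2.04, SE 0.29, adjusted p = 9.82e-05). miR-411-5p, the most abundant of the locus's called miRNAs, fell from 217, 225, 162 and 331 CPM to 121, 81.8, 88.7 and 67.7 CPM (log2 -1.45, SE 0.19, adjusted p = 3.84e-05). Its opposite arm miR-411-3p fell with it, by 1.39 on the log2 scale (adjusted p = 0.00320). Both miR-541-5p and miR-411-5p passed in all 15 alternative fits. With lane as a term they were the only 2 of the locus's 12 called miRNAs to pass, while the others had adjusted p-values from 0.0553 (miR-431) to 0.357 (miR-376c-3p).

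The calls lay in 2 of the 3 stretches of the locus. The upstream stretch at chr6:134298094-134331404, which includes the miRNAs antisense to the retrotransposon-like gene Rtl1, holds 11 hairpins with 18 miRNAs of the table, and all 18 were below 0, with miR-431 and miR-337-5p called. miR-431 went from 11.0, 14.2, 5.04 and 13.0 CPM to 4.55, 2.86, 4.36 and 3.16 CPM (log2 -1.57, SE 0.28, adjusted p = 0.00174). Sample 3 of week 6 was the low one and lay just above the week 21 range. The downstream stretch from miR-379 to miR-410 at chr6:134543460-134579828 holds 34 hairpins with 59 miRNAs, of which 43 were below 0 and 10 were called. Between them lies a short stretch from miR-341 to miR-370 at chr6:134347871-134354559, where 0 of 4 miRNAs were called in edgeR's test, 2 were above 0 and the median was -0.10. The most abundant miRNA of the upstream stretch, miR-127-3p, did not pass (log2 -0.62, adjusted p = 0.0932). Further falls were those of miR-379-5p (log2 -1.52, or -1.03 with lane as a term), miR-1193-3p (-1.86), miR-381-3p (-1.68), miR-134-5p (-1.25) and miR-409a-3p (-1.01). miR-300-3p (-0.91) and miR-376c-3p (-1.90) also passed, but with the replicate number as a block their adjusted p-values were 0.0683 and 0.0594. Both were also lost without most single libraries (adjusted p = 0.0584 to 0.141), the exceptions being samples 1 and 3 of week 6 for miR-300-3p and sample 1 of week 21 for miR-376c-3p, whose log2 value without it was -2.80. The call on miR-381-3p was lost without sample 2 of week 6 (adjusted p = 0.0649) and that on miR-409a-3p without sample 4 of week 21 (adjusted p = 0.0537). miR-381-3p and miR-300-3p differ by 1 base over 18.

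The list of miRNAs from the imprinted genes H19, Igf2 and Mest had 2 of 5 rows called lower, beside 4.71% of all miRNAs, and all 5 below 0. miR-335, which lies in the imprinted gene Mest, had 77.1, 44.9, 44.7 and 62.1 CPM at week 6 and 25.5, 20.4, 18.0 and 32.1 CPM at week 21. All week 6 samples were above all week 21 samples, and the log2 fold change was -1.31 (SE 0.25, adjusted p = 0.00204). miR-675-3p, processed from the growth-restricting RNA H19, was also called lower, but on 2 to 6 counts per library at week 6 and 0 to 1 counts at week 21, so no fold is given. Its call was lost with lane as a term (adjusted p = 0.117), and without sample 4 of week 6 or sample 2, 3 or 4 of week 21 (0.0517 to 0.0729).

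The X-linked cluster from miR-322 to miR-450, which includes miR-503 and is known for cell cycle arrest and muscle differentiation, held 5 of the 29 miRNAs that fell. Its 6 hairpins at chrX:137720952-137726219 gave 12 rows, of which 5 fell, beside 4.71% of all miRNAs, and all 12 were below 0, with a median of -1.07. Under library-size scaling, 2 of the 12 were called. miR-351-5p, its most abundant member, had 1514, 1619, 907 and 1363 CPM at week 6 and 691, 532, 522 and 521 CPM at week 21. The ages did not overlap, although sample 3 of week 6 and sample 1 of week 21 stood towards each other. The log2 fold change was -1.33 (SE 0.27, adjusted p = 0.00303). By contrast with miR-351-5p, the 2 miRNAs that share its seed did not pass: miR-125b-5p had a log2 fold change of 0.30 (adjusted p = 0.509) and miR-125a-5p of -0.09 (adjusted p = 0.940).

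Within the same cluster, miR-542-3p fell from 75.2, 87.8, 82.5 and 122 CPM to 45.2, 39.0, 44.3 and 35.6 CPM (log2 -1.25, SE 0.21, adjusted p = 0.00128), with no overlap between ages. Its other arm miR-542-5p fell by 1.04 and miR-322-3p by 1.28 on the log2 scale, but both calls were lost without sample 2 of week 21, and also without sample 1 of week 6 for miR-542-5p or sample 4 of week 21 for miR-322-3p (adjusted p = 0.0530 to 0.0729). miR-450a-5p, which differs from miR-450b-5p by 1 base over 21, fell by 0.67. Its adjusted p was 0.0622 with the replicate block and 0.0537 to 0.115 without sample 2 or 4 of week 6 or sample 1, 3 or 4 of week 21. In the fit with lane, miR-542-5p and miR-450a-5p had adjusted p-values of 0.117 and 0.112. The guide arm miR-322-5p, with the AGCAGCA seed, did not pass (log2 -0.40, adjusted p = 0.607).

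**Figure D3:**
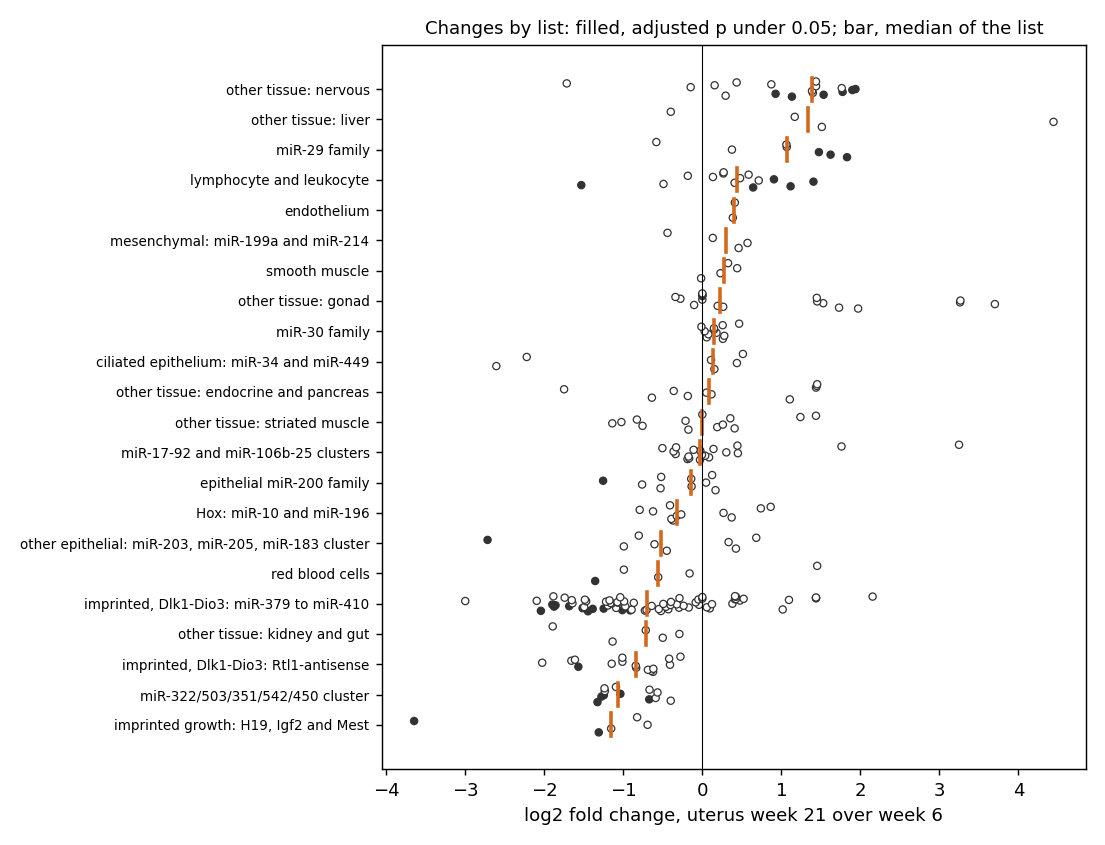
Log2 fold change of week 21 over week 6 (x axis) for the members of each list (y axis), each point 1 miRNA, filled where the adjusted p-value was under 0.05, with a bar at the list's median. The miR-29 family (median 1.07) and the nervous list (1.39) lie to the right, and the 2 Dlk1-Dio3 lists (-0.84 and -0.71) and the X-linked cluster (-1.07) to the left.

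Leukocyte miRNAs moved in both directions. Of the 14 rows of the list, 4 rose and 1 fell, beside 4.38% and 4.71% of all miRNAs, and the median log2 fold change was 0.44. miR-142, which is restricted to blood cells, gave 724, 686, 582 and 1022 CPM of its 5p arm at week 6 and 2028, 1566, 1639 and 1608 CPM at week 21. These did not overlap, and the rise was 2.17-fold (log2 1.12, SE 0.23, adjusted p = 0.00303). The 3p arm went from 38.5, 32.6, 32.6 and 86.9 CPM to 157, 152, 102 and 107 CPM (log2 1.41, SE 0.30, adjusted p = 0.00476). Sample 4 of week 6 was the high one of its age and still lay below all samples of week 21. With lane as a term, miR-142-3p passed and miR-142-5p had an adjusted p of 0.0557.

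miR-155-5p, which is induced in activated lymphocytes and macrophages, rose from 22.7, 26.7, 19.99 and 29.9 CPM to 49.8, 59.4, 45.4 and 41.5 CPM (log2 0.91, SE 0.21, adjusted p = 0.00972, or 0.0765 with lane as a term). The rise of miR-21-5p, an abundant miRNA of many growing and inflamed tissues, was from 10569 to 16511 CPM at week 6 to 21408 to 23586 CPM at week 21 (log2 0.64, SE 0.19, adjusted p = 0.0370). Its adjusted p was 0.0561 with the replicate block, and 0.0680 to 0.0929 when any 1 library but sample 3 of week 6 or sample 1 of week 21 was left out. The myeloid miR-223-3p (log2 0.71, adjusted p = 0.150) and the lymphocyte miR-150-5p (0.41, adjusted p = 0.370) did not pass.

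miR-146b-5p, a relative of the NF-kappaB-induced miR-146a-5p, was the list's exception. It had 1209, 5008, 5554 and 4367 CPM at week 6 and 2037, 1865, 1492 and 1006 CPM at week 21. Samples 2, 3 and 4 of week 6 were above every week 21 sample and sample 1 was within their range. The log2 fold change was -1.53 (SE 0.40, adjusted p = 0.0200), and the adjusted p was 0.0977 without sample 3 of week 6 and 0.0784 without sample 4 of week 21. miR-146a-5p, with the same seed, did not pass (log2 -0.49, adjusted p = 0.391). A similar distribution was seen for miR-31a-5p, a miRNA of epithelia and other lineages, with 114, 376, 242 and 552 CPM at week 6 and 132, 151, 135 and 93.4 CPM at week 21 (log2 -1.39, SE 0.32, adjusted p = 0.00837). With lane as a term these 2 miRNAs had adjusted p-values of 0.467 and 0.334. In the 1 pair of samples from the same lane, which includes sample 1 of week 6, their log2 differences were 0.49 and 0.42, opposite in sign.

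The sums of the miR-200 family and of the other epithelial list were lowest in that same sample, although miR-203b-3p was highest in it. The summed miR-200 family was 1647, 4783, 2600 and 6226 CPM in samples 1 to 4 of week 6 and 2459 to 4334 CPM at week 21. Of its 9 rows, 0 rose and 1 fell, beside 4.38% and 4.71% of all miRNAs. The 1 that fell was the minor arm miR-200a-5p (6.84, 21.8, 20.7 and 28.1 CPM to 11.4, 8.72, 8.55 and 6.60 CPM, log2 -1.26, SE 0.35, adjusted p = 0.0278). Its call was lost without any 1 of samples 2 to 4 of either age (adjusted p = 0.0543 to 0.102) and with lane as a term (log2 -0.59, adjusted p = 0.697), and its sign turned in the same-lane pair (log2 0.45). The main arms miR-200a-3p (log2 -0.76, adjusted p = 0.111), miR-200b-3p (-0.53, 0.370) and miR-141-3p (0.17, 0.852) did not pass. The other epithelial list had 1 of 8 lower, beside 4.71% of all miRNAs. This was miR-203b-3p, from the locus of the epidermal differentiation miRNA miR-203. It fell from 12.2, 1.70, 8.29 and 9.77 CPM to 1.21, 0.781, 0.622 and 2.44 CPM, with 1 overlapping sample of week 6 (log2 -2.72, SE 0.49, adjusted p = 0.00174). The part that epithelial content plays in the values of miR-146b-5p and miR-31a-5p was not tested.

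There were 8 lists of the organ's cells and families with no call in edgeR's test. These were smooth muscle (4 rows), mesenchyme (4), endothelium (2), the ciliated cell miRNAs miR-34 and miR-449 (6), the miR-30 family (11), the miR-17-92 and miR-106b-25 clusters (19), the Hox-encoded miR-10 and miR-196 (11) and miR-98 of the let-7 family (2). Of their 59 rows, 9 had an unadjusted p under 0.05, and DESeq2 called 2. Over all 616 miRNAs, 130 had an unadjusted p under 0.05. The red blood cell list had 1 of 5 lower, beside 4.71% of all miRNAs. miR-486 fell from 498, 616, 959 and 896 CPM to 328, 313, 245 and 394 CPM with no overlap (log2 -1.36, SE 0.35, adjusted p = 0.0189), but not without sample 3 of week 6 (adjusted p = 0.0847) or sample 3 of week 21 (0.0529). The fit with lane gave a log2 value of -0.84 (adjusted p = 0.169). The erythroid miR-451-5p did not pass (log2 -0.56, adjusted p = 0.413).

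Neuronal miRNAs were present at low level and some of them were higher in the adult organ. Of 17 rows in the nervous list, 6 rose and 0 fell, beside 4.38% and 4.71% of all miRNAs, and 2 of the 6 share their reads. The summed level of the list was 89.0 to 334 CPM at week 6 and 255 to 602 CPM at week 21, and it was highest in sample 1 of each age. miR-124-3p, the defining neuronal miRNA, had 19.2, 8.27, 1.98 and 7.33 CPM at week 6 and 56.5, 31.4, 12.9 and 11.6 CPM at week 21. The 2 ages overlapped through sample 1 of week 6 (log2 1.53, SE 0.47, adjusted p = 0.0467). This call was lost without any 1 of samples 2 to 4 of week 6 or samples 1 and 2 of week 21 (adjusted p = 0.0969 to 0.194), and also under library-size scaling (0.0721), under upper-quartile scaling (0.0901) and with the 8 samples alone (0.0583). The fit with lane gave a log2 value of 0.79 (adjusted p = 0.596). Without sample 1 of week 6 it was 2.14 (adjusted p = 0.00494), and in the same-lane pair the difference was -0.37.

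miR-129-2-3p and miR-129-1-3p share a seed and all 19 bases of the shorter one, so their reads cannot be told apart and they count as 1 observation. miR-129-2-3p had 11.4, 1.48, 0.540 and 1.42 CPM at week 6 and 18.1, 12.7, 11.5 and 16.9 CPM at week 21. Sample 1 of week 6 was high and just below the week 21 range. The log2 fold changes were 1.94 (SE 0.52, adjusted p = 0.0216) and 1.90 (SE 0.50, adjusted p = 0.0200), and both calls were lost without sample 2, 3 or 4 of week 6 or sample 4 of week 21 (adjusted p = 0.0537 to 0.0704). Without sample 1 of week 6 the log2 fold changes were 3.58 (adjusted p = 3.34e-06) and 3.26 (2.85e-05), and with lane as a term 1.66 and 1.74 (both 0.0868). miR-9a-5p (log2 1.13), miR-138-5p (0.93) and miR-153-3p (1.77) were the other members called, each lost without at least 5 single libraries (adjusted p = 0.0606 to 0.198). With lane as a term their log2 values were 0.52, 0.94 and 0.81 (adjusted p = 0.728, 0.149 and 0.668). Under the library-size and upper-quartile scalings, 3 and 2 of the 17 were called. Of the other lists of tissues foreign to the uterus, liver, striated muscle, kidney and gut, gonad, and endocrine and pancreas, none had a call in edgeR's test. Of their 50 rows, 5 had an unadjusted p under 0.05, and DESeq2 called 3. The summed liver miRNAs moved from 1.83 to 4.03 CPM at week 6 to 4.51 to 10.9 CPM at week 21. The summed gonad miRNAs stood at no more than 9.56 CPM in any sample. The remaining lists stood well above these. Striated muscle had 898 to 1161 CPM at week 6 and 876 to 1051 CPM at week 21. Kidney and gut had 355 to 1520 and 337 to 541 CPM, and endocrine and pancreas 74.6 to 201 and 141 to 377 CPM. The source of these miRNAs in uterus was not tested.

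A further rise was found in the miR-290 cluster, known from embryonic stem cells and early embryos. Its 4 hairpins at chr1:74878501-74879789 gave 5 rows, all above 0, of which 3 rose, beside 4.38% of all miRNAs. miR-291a-3p had 2.70, 4.88, 4.32 and 3.46 CPM at week 6 and 11.2, 10.5, 9.80 and 9.76 CPM at week 21, without overlap (log2 1.31, SE 0.40, adjusted p = 0.0438). The call did not hold with the replicate block (adjusted p = 0.0561) or without any 1 library other than sample 3 of week 6 (adjusted p = 0.0606 to 0.120). miR-291b (log2 1.94, SE 0.37, adjusted p = 0.00204) held in all 8 fits that left out 1 library. miR-292-3p did not (log2 1.37, adjusted p = 0.0313), with adjusted p-values of 0.0537 to 0.0919 without sample 1 or 4 of week 6 or sample 2, 3 or 4 of week 21. The adjusted p-values of the 3 in the fit with lane were 0.105, 0.0568 and 0.117. These were low levels in counts, at most 11.2 CPM for miR-291a-3p.

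The arms of a hairpin were compared where each had 1 RefSeq position and a mean of at least 10 counts over the 8 samples. Of the 85 such hairpins, 60 had the same sign in both arms. A called arm was found in 17 of the 85, while 9.09% of all miRNAs, counted singly, were called. In 16 of the 17 the arms had the same sign. In 4 of them, miR-142, miR-411, miR-542 and miR-582, both arms were called in the same direction. For miR-582, the 3p arm rose from 67.2, 41.8, 31.3 and 64.1 CPM to 90.1, 98.0, 109 and 99.0 CPM (log2 0.93, SE 0.22, adjusted p = 0.00984) and passed in all 15 alternative fits. The 5p arm rose from 11.0, 6.36, 5.94 and 12.6 CPM to 23.5, 21.1, 16.95 and 17.9 CPM (log2 1.10, SE 0.34, adjusted p = 0.0477). Both arms were higher in every week 21 sample than in any of week 6. The 5p call was lost with the replicate block (adjusted p = 0.0683) and without any 1 of the 8 libraries (0.0584 to 0.129), and with lane as a term (0.117). Among the 17 hairpins with a called arm, the 1 with opposite signs was miR-146b.

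The same contrast of ages was available in 9 other organs of the same female rats, 80 samples in all with the uterus, so the change in uterus could be set against their mean change. The difference passed for 32 miRNAs with a higher value in uterus (5.19%) and 7 with a lower one (1.14%). Over all miRNAs the median difference was 0.20 on the log2 scale, and the values here are to be read against it. The test itself was against a difference of 0, and no fit of it had lane as a term. With library sizes as the only scaling the median was 0.38 and the counts were 50 higher and 4 lower, and without kidney they were 17 and 8. The excess of higher over lower values also depended on other organs, with 25 and 15 without liver, 25 and 13 without skeletal muscle and 26 and 13 without spleen, where the median difference was 0.03 to 0.07. Of the 56 called in uterus, 17 were called higher and 3 lower in this test too. Organs of 1 rat are not independent of each other.

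miR-142-3p and miR-142-5p rose in uterus beyond the other organs, with differences of 1.63 (SE 0.27, adjusted p = 1.92e-05) and 1.26 (SE 0.24, adjusted p = 0.000211). The mean changes of the other organs were -0.16 and -0.08. miR-142-5p was called in none of the 9, while miR-142-3p was called lower in 2 of them, with changes from -0.81 to 0.62 over the 9. miR-155-5p (difference 0.97, adjusted p = 0.00304) and miR-223-3p (0.93, adjusted p = 0.0225) were also past the threshold. The differences of the neuronal miR-124-3p and miR-129-1-3p were 2.17 (SE 0.56, adjusted p = 0.00793) and 2.13 (SE 0.62, adjusted p = 0.0225). Here the other organs had mean changes of -0.59 and -0.20, and uterus in the same fit 1.58 and 1.92. The change of miR-124-3p ran from -3.65 to 0.54 over the 9 organs. It was called lower in 1 of them, and miR-129-1-3p in none, so part of the miR-124-3p difference came from falls in other organs.

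In the other direction, miR-203b-3p differed by -2.97 (SE 0.56, adjusted p = 0.000211), miR-31a-5p by -1.38 (SE 0.29, adjusted p = 0.000846) and miR-146b-5p by -1.67 (SE 0.49, adjusted p = 0.0247). The last pair was called in none of the 9 organs. miR-10a-5p was also lower in this test, by -0.89 (SE 0.27, adjusted p = 0.0267), though its change within uterus was not called (log2 -0.39, adjusted p = 0.365).

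**Figure D4:**
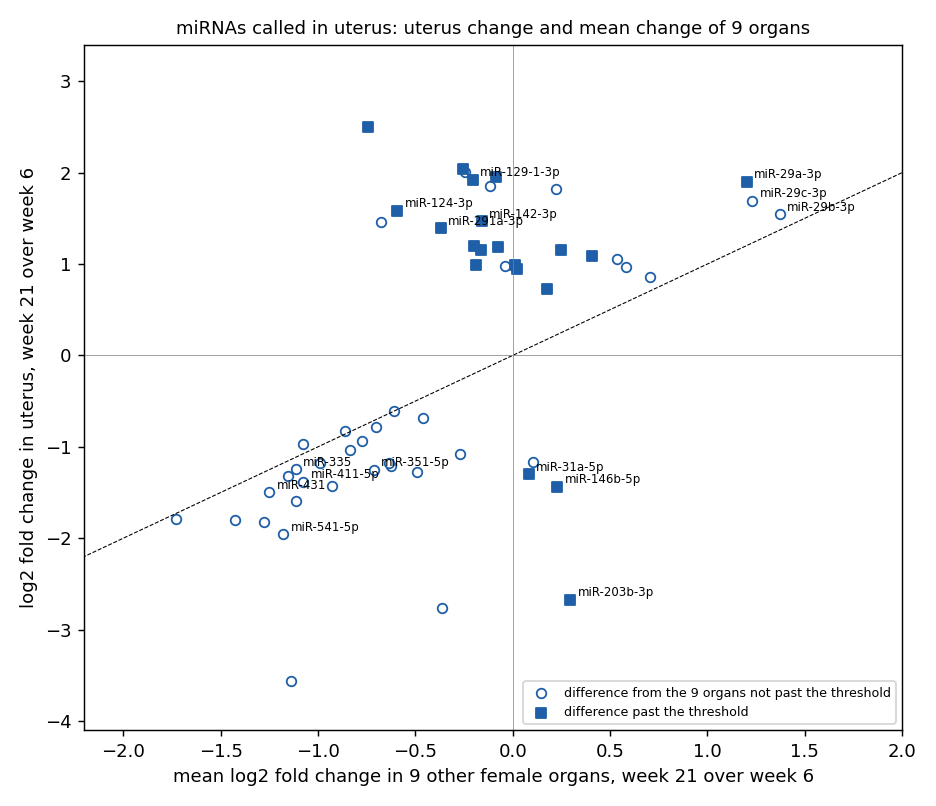
Mean log2 fold change of week 21 over week 6 in 9 other female organs (x axis) against that in uterus (y axis) for the miRNAs called in uterus, filled squares where the difference was past the threshold, with a dashed line of equal change. The 3 called miR-29 miRNAs lie high on both axes, the Dlk1-Dio3 miRNAs low on both, and miR-142-3p, miR-146b-5p and miR-31a-5p near 0 on the x axis.

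For the miR-29 family and the imprinted miRNAs, other organs moved too. Over all miRNAs the share called higher at week 21 was 3.41% in adrenal gland, 4.71% in brain, 3.41% in heart, 0.649% in kidney, 2.6% in liver, 5.68% in lung, 7.14% in skeletal muscle, 4.87% in spleen and 6.33% in thymus. The share called lower was 5.36% in adrenal gland, 5.03% in brain, 6.82% in heart, 1.14% in kidney, 2.6% in liver, 7.79% in lung, 22.6% in skeletal muscle, 4.71% in spleen and 4.55% in thymus. miR-29a-3p was called higher in 8 of the 9 organs, miR-29c-3p in 7 and miR-29b-3p in 8, with mean changes of 1.20, 1.23 and 1.37. Only miR-29a-3p passed edgeR's test of the difference (0.69, SE 0.22, adjusted p = 0.0415), where the median of all miRNAs was 0.20. The differences of miR-29c-3p and miR-29b-3p were 0.46 (adjusted p = 0.271) and 0.17 (adjusted p = 0.986). miR-411-5p was called lower in 6 of the 9 organs, miR-541-5p, miR-335 and miR-351-5p in 5 each and miR-431 in 4. The change of miR-411-5p ran from -3.35 in skeletal muscle to 0.32 in adrenal gland. None of these 5 differed from the organ mean beyond the threshold (adjusted p = 0.0726 to 1.00).

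Of the 29 miRNAs that fell in uterus, 21 also fell in skeletal muscle, where 22.6% of all miRNAs were called lower, 13 in heart (6.82%) and 11 in lung (7.79%). These are 21 of 139, 13 of 42 and 11 of 48 miRNAs called lower there. Of the 27 that rose in uterus, 8 rose in lung (5.68%) and 7 in thymus (6.33%), out of 35 and 39 called higher. Opposite calls were found as well: in adrenal gland 5 of the 27 rose and 4 fell, and in skeletal muscle 5 rose and 2 fell. In kidney, where 7 miRNAs were lower in all (1.14%), 2 of the 29 were among them.

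The other 2 ages place the interval within the life of the organ. miR-29a-3p averaged 289 CPM at week 2, 696 at week 6, 2533 at week 21 and 2560 at week 104. miR-195-5p followed the same order up to week 21, at 483, 849, 1798 and 1842 CPM. For both, the CPM ranges of weeks 21 and 104 overlapped. The TMM factors, by which the fits scale the size of each library, were 0.947 to 1.18 at week 21 and 0.521 to 0.877 at week 104. On that scale the levels of week 104 would stand higher against those of week 21 than in the CPM printed.

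miR-411-5p declined through all 4 ages, from 1178 to 234, 89.8 and 13.1 CPM. miR-541-5p averaged 299, 93.3, 24.7 and 3.50 CPM, and miR-351-5p 7299, 1351, 567 and 281 CPM. In absolute CPM the largest fall of these 3 came before week 6, where the starting level was highest. As ratios of the means, miR-541-5p and miR-411-5p fell most after week 21 and miR-351-5p before week 6. miR-142-5p had its highest mean at week 21, at 1710 CPM, against 300 CPM at week 2, 754 at week 6 and 799 at week 104. miR-146b-5p had its highest mean at week 6, at 4034 CPM, against 551 CPM at week 2 and 1478 at week 104. These values at weeks 2 and 104 are given as a description with no test.

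**Figure D5:**
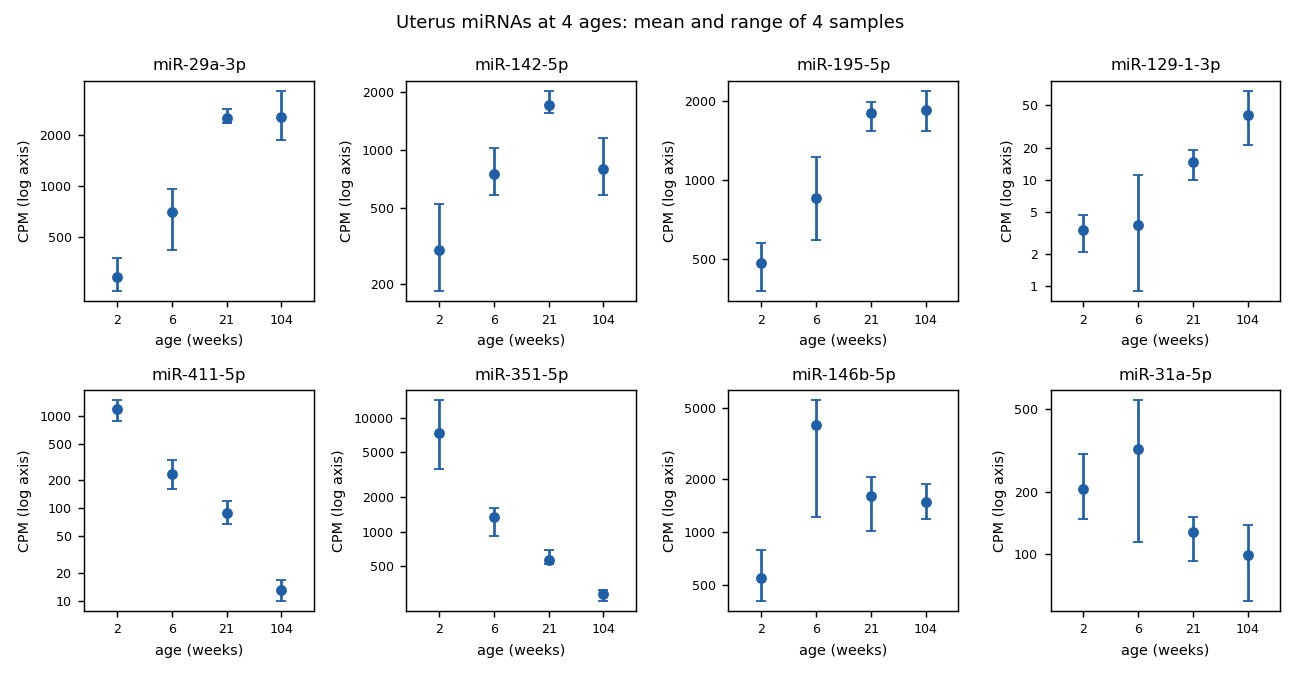
CPM in uterus (y axes, log) at 2, 6, 21 and 104 weeks (x axes, not to scale) for 8 miRNAs, each point the mean and each bar the range of 4 samples. The CPM are not TMM-scaled. miR-29a-3p averages 2533 CPM at week 21 and 2560 CPM at week 104, miR-411-5p falls to 13.1 CPM at week 104, and miR-142-5p is highest at week 21, at 1710 CPM.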

How the data were processed

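Small RNA libraries (TruSeq) of ground organs were sequenced by the authors, trimmed with fastp 0.23.2, aligned with Bowtie 1.3.1 to miRBase and other transcript collections, and counted per miRNA, with low miRNAs removed. The deposited values are raw counts without normalization, and the libraries carry no molecular identifiers or spike-ins, so changes are relative to the other miRNAs. The uterus comparison was fitted here with edgeR 4.0.16 (quasi-likelihood, TMM) in R 4.3.3 on all 16 uterus samples with 4 age groups, and p-values were adjusted by Benjamini-Hochberg over 616 miRNAs. SE is the absolute log2 fold change divided by the root of F. The difference from 9 organs used 80 female samples of weeks 6 and 21. Shares of counts were tested with exact permutation. The fits were tested on simulated counts. Tables were made with Python 3.11.15, pandas 2.3.3 and SciPy 1.17.1. Lanes came from the study's sample table.

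The miRNAs named were the 8 largest changes in each direction with at least 10 CPM and no overlap, the 5 most abundant, the best called member of each list, and the 3 largest differences from the organs in each direction. Every other miRNA given with values, such as miR-195-5p, miR-15b-5p and miR-203b-3p, was added after their values were seen. The comparison and the 23 lists were chosen with earlier results of these data known. Fold changes are TMM-scaled and so differ from ratios of the CPM printed. Alternatives were DESeq2 1.42.0, library-size and upper-quartile scaling, a mean count of at least 10, only the 8 samples, lane, a replicate block, leaving out each library, and, chosen after seeing the data, the same-lane pair. The deviations of same-numbered samples from their age means correlated at 0.109 to 0.180 over 356 miRNAs, so the numbers were taken as pairing. The ages are different rats, and the labels give no reason for pairing. Samples of different number correlated at -0.376 to 0.237, and 1 of 4 samples correlated best with its own number. A call lost with the block is therefore a check on 1 setting only. Positions are those of RefSeq on GRCr8, matched by name and sequence, while the authors aligned to rn7.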

Additional observations from a re-analysis of the deposited data

Results flagged for a closer look

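Among the uterus samples, 12 of 102 groups of 4 values had 1 sample far from the other 3, and chance gives about 1 in 20 of such groups. The values are CPM without the TMM scaling of the fits, so the composition of a library enters into them. The TMM factor was 0.708 for sample 3 of week 6, against 0.954 to 1.18 for the other samples of that age. Whether the flags hold after TMM scaling was not tested. Sample 1 of week 6 was high for miR-129-2-3p (11.4 CPM, others 0.540 to 1.48) and miR-129-1-3p (11.0 CPM, others 0.901 to 1.91), which share their reads, and low for miR-143-3p (437197 CPM, others 446420 to 447047). Sample 2 of week 6 was high for the summed ciliated cell miRNAs (530 CPM, others 100 to 159). Sample 3 of week 6 was low for the summed miR-17-92 and miR-106b-25 clusters (3860 CPM, others 5601 to 5805) and the summed X-linked cluster (1432 CPM, others 2313 to 2371). Sample 4 of week 6 was high for miR-29b-3p (46.6 CPM, others 20.5 to 24.6) and miR-142-3p (86.9 CPM, others 32.6 to 38.5).

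At week 21, sample 1 was high for miR-142-5p (2028 CPM, others 1566 to 1639), miR-351-5p (691 CPM, others 521 to 532) and the summed X-linked cluster (1270 CPM, others 969 to 1014). Sample 3 was low for the summed miRNAs of the other epithelial list (1782 CPM, others 1974 to 2009). The TMM factor of sample 1 was 1.18, against 0.947 to 1.02 for the other samples of week 21.

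The change in uterus differed from the mean change of 9 other organs, past an adjusted p-value of 0.05 in edgeR's test of the difference, for 11 named miRNAs. It was higher in uterus, on the log2 scale, for miR-124-3p by 2.17, miR-129-1-3p by 2.13, miR-129-2-3p by 2.04, miR-291a-3p by 1.76, miR-142-3p by 1.63, miR-582-5p by 1.32, miR-142-5p by 1.26 and miR-29a-3p by 0.69. The difference was -1.67 for miR-146b-5p, -1.38 for miR-31a-5p and -0.89 for miR-10a-5p.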

How the results depend on the processing

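The 56 calls became 16 with lane as a term and 35 to 58 when 1 library was left out, with 36 without sample 2 and 35 without sample 4 of week 21. The replicate block gave 46, all among the 56, and beside those given in the report it ended the calls on miR-138-5p, miR-135b-5p, miR-181a-1-3p and miR-181b-1-3p (adjusted p = 0.0508 to 0.0561). DESeq2 gave 73, library-size scaling 38, upper-quartile scaling 71 (16 higher and 55 lower, with all miRNAs shifted by -0.18 in the median), a mean count of at least 10 gave 62 and the 8 samples alone 65. The 44 calls of at least 2-fold became 16 with lane as a term and 28 to 49 without 1 library. The 39 differences from the other organs became 61 with DESeq2, 25 without kidney and 26 to 44 without 1 library. The change of -1.35 points in the share of the 10 most abundant was -1.84 to -0.399 without 1 library. Signs turned for miR-143-3p (0.00518 with DESeq2, 0.46 with lane, 0.0904 with library size, 0.0239 with 8 samples, and -0.106 to 0.16 over single libraries left out, above 0 without sample 3 of week 6 or sample 1 or 4 of week 21), miR-10b-5p (0.17 with lane), miR-10a-5p (0.0304 with lane) and miR-26a-5p (0.00319 with library size), none of them called. In the same-lane pair they turned for miR-200a-5p (0.45), miR-124-3p (-0.37), miR-146b-5p (0.49) and miR-31a-5p (0.42). The cause of these shifts was not tested. Of the 56, 12 were called in all 15 fits. At 3 counts or fewer in each library of an age a level is at the floor, as for 2 of the 56.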

Other observations

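Several other miRNAs past the threshold belonged to none of the groups described. miR-204-5p, known from the eye and other epithelia, rose from 91.6, 73.3, 45.7 and 57.2 CPM to 172, 119, 115 and 150 CPM, without overlap (log2 0.98, SE 0.21, adjusted p = 0.00356 in edgeR's test), and was called higher in 3 of the 9 other organs. miR-488-3p rose from 21.1, 17.4, 15.8 and 28.1 CPM to 48.6, 48.0, 42.3 and 43.2 CPM (log2 1.09, SE 0.21, adjusted p = 0.00204). Both held in all 8 fits that left out 1 library and in 14 of 15 alternative fits, the exception being lane as a term. miR-421-3p, from the X chromosome but outside the cluster described, fell from 85.4, 109, 81.1 and 113 CPM to 61.6, 37.6, 50.5 and 37.2 CPM (log2 -1.15, SE 0.22, adjusted p = 0.00204). These miRNAs were chosen after their values were seen.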
